A study of Mus musculus with 4 samples.

Results

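Withdrawal of doxycycline was followed in cultures grown from mouse club cells, the secretory cells of the airway lining. The comparison sets the array of the 3W+Dox+2W-Dox population against the array of the 3W+Dox population, gene by gene. Both began as club cells isolated from the lungs of adult mice and spent 3 weeks in medium with doxycycline, a drug used to switch on inducible transgenes, in a protocol of interrupted reprogramming. The 3W+Dox cells, which the labels call Club-iPL cells, were collected on the drug, and the 3W+Dox+2W-Dox cells, called withdrawn cells here, after 2 further weeks without it. Freshly isolated club cells (Day0) and induced pluripotent stem cells made from club cells (iPS) were the other populations, and their signals are given beside those of the pair for orientation. The labels used here name no transgene, promoter, strain or sorting gate. A 3W+Dox culture kept on the drug for the longer time was not analysed here, so the loss of the drug and the extra time in culture cannot be told apart.

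Values are log2 signals of Affymetrix arrays, 1 array per population, so no difference below has a replicate check and no p-value can be given. Of 23185 named genes, 12578 were kept because the brighter of their 2 signals reached 6.67, the median signal over the 4 arrays. The remaining 10607 were dim on both arrays. Of the kept genes, 637 were kept only through the withdrawn array and 417 only through the 3W+Dox array. Such genes favour a higher signal on the array that kept them, in any list below. Mc5r (brighter signal 6.67, difference -0.12) lay just inside this limit, and Dgke (6.67, difference -0.32) just outside it. A difference is always withdrawn minus 3W+Dox, so a positive value means a higher signal after withdrawal, and 1 log2 unit is 2-fold. Each array measured RNA of a whole sample, so fewer cells of a type and less RNA per cell cannot be told apart in any result below.

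The airway surface is lined by club cells, which secrete protective proteins and detoxify inhaled compounds, by ciliated cells, which beat mucus out of the lung, and by mucus-making goblet cells. Club cells can give rise to both other kinds. Building the many motile cilia of a ciliated cell needs a regulatory cascade that ends in the factors Foxj1 and Rfx, and many structural proteins of the axoneme, the microtubule core of the cilium. Injured or irritated airway epithelium can instead take on mucous or squamous features, in which cells make gel-forming mucins, or keratins and the cross-linked proteins of a cornified envelope.

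Most genes read alike on the 2 arrays. Among the kept genes the median difference was 0.00 with a standard deviation across genes of 0.56, and 82.7% lay within 0.5 log2 units of 0. At least 2-fold higher after withdrawal were 337 kept genes (2.68%), and at least 2-fold lower were 437 (3.47%). Both directions together made 6.15% of the kept genes, and the 2-fold counts within gene lists below are to be set beside these shares. At least 4-fold differences were found for 70 genes upward (0.557%) and 109 downward (0.867%), together 1.42%, and at least 8-fold differences for 10 upward (0.0795%) and 41 downward (0.326%), together 0.405%. The large decreases outnumbered the large increases and reached further, from 3.65 log2 units upward to -6.73 downward.

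Markers of several cell types were bright on the arrays of the pair. Scgb1a1, the defining club cell gene, read 13.52 at Day0, 12.62 on the drug and 13.04 after withdrawal, but Sftpc, which defines alveolar type 2 cells, read 13.49, 13.39 and 13.54, and fibroblast and macrophage genes described further on were brighter in both cultures than at Day0. The ciliated cell markers Foxj1, Sntn and Dynlrb2 were bright in the Day0 sample too, at 11.19, 11.12 and 10.48. The part of these cell types in the differences was not tested.

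The decreases were also brighter. Of the 350 kept genes whose brighter signal was 12 or more, 6.29% passed 2-fold downward and 2.29% upward, while of the 6099 kept genes below 8.82 the shares were 2.95% and 3.71%. The 109 genes at least 4-fold lower had median signals of 9.64 on the drug and 6.56 in withdrawn cells, with 6.39 at Day0 and 6.15 in iPS cells. The 70 genes at least 4-fold higher had median signals of 6.003 on the drug and 8.56 in withdrawn cells, with 9.67 at Day0 and 5.40 in iPS cells. Of these 70, 52 had a 3W+Dox signal below 6.67, where signals come close to background and the size of a fold is not exact, and of the 109, 57 had such a signal in withdrawn cells.

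**Figure D1:**
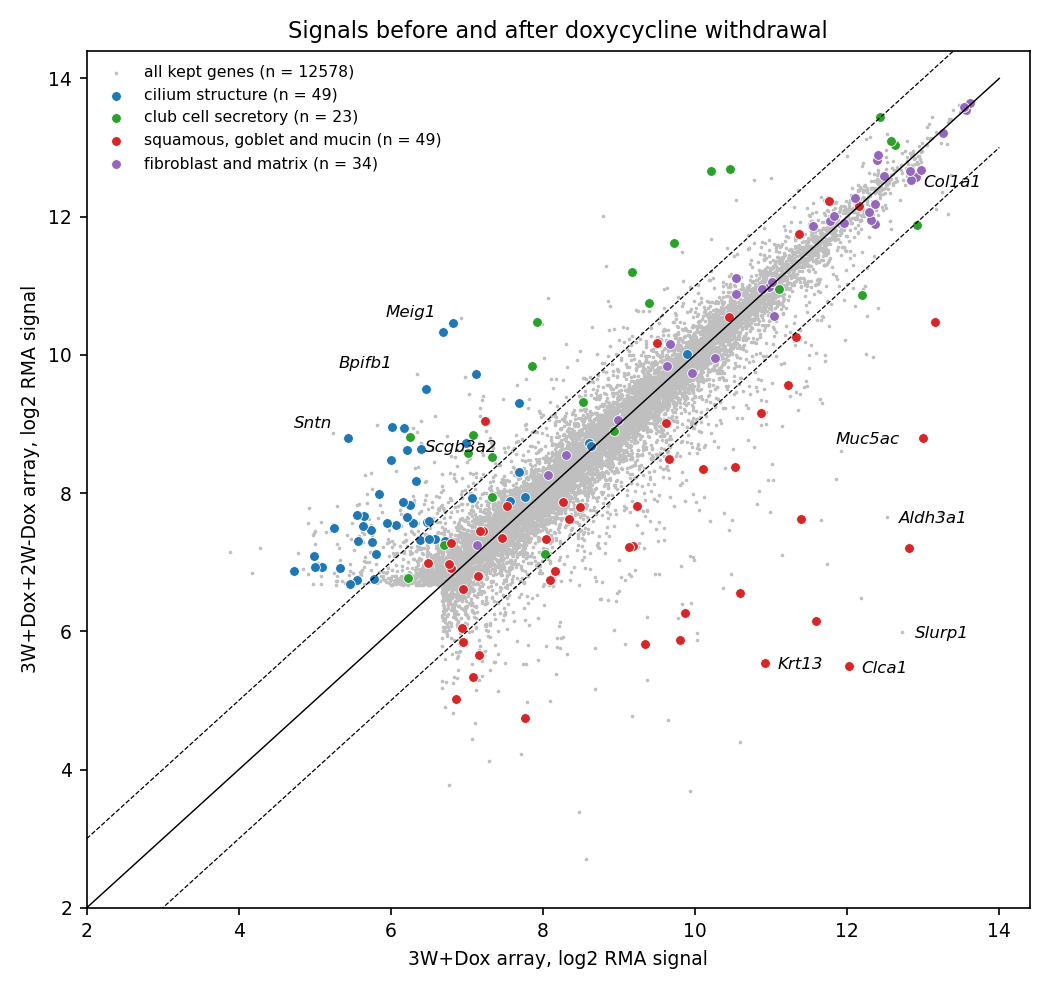
Log2 signal of the 12578 kept genes on the 3W+Dox array (x axis) and the 3W+Dox+2W-Dox array (y axis), with kept members of 4 gene groups in colour, equal signals on the solid line and 2-fold differences on the dashed lines. Cilium genes lie above the diagonal, many squamous, goblet and mucin genes lie far below it, and the 34 fibroblast and matrix genes lie between the dashed lines.

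Genes of the motile cilium lists were higher after withdrawal almost without exception. All 24 measured genes of the outer and inner dynein arms, the motors of the axoneme, had a higher signal in withdrawn cells, with a median difference of 1.17. Of the 43 measured genes of the radial spokes, central pair, nexin links and other proteins of motile cilia or sperm tails, 42 had a higher signal, with a median of 1.53. Over all 23185 named genes 12450 had a higher signal, and the median was 0.03. Of the 15 dynein arm genes that were kept, 10 were at least 2-fold higher, and of the 34 kept genes of the spoke and central pair list 27 were, with 0 lower in either list. In these lists 12 and 24 of the kept members, in that order, were kept only through the withdrawn array, which favours a higher signal there, and the medians over all measured members do not depend on that choice.

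The members lay far apart in size. Meig1 (Entrez gene 104362), a protein known from sperm tail assembly, had the largest increase of all kept genes and read 11.15 at Day0, 6.81 on the drug, 10.46 after withdrawal and 4.43 in iPS cells, a 12.6-fold higher signal after withdrawal. Spata18, counted in the spoke and central pair list though it acts in mitochondrial quality control, read 11.68, 6.69, 10.33 and 6.03 on the same arrays. Sntn (Entrez gene 218739), a protein of the ciliary tip, read 11.12, 5.44, 8.79 and 3.89. Each of these withdrawn signals lay between that of 3W+Dox and that of Day0.

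Among the motors, Dynlrb2, a dynein light chain, read 6.01 on the drug and 8.95 in withdrawn cells, and Dnali1, an inner arm light chain, read 7.12 and 9.72. The outer arm heavy chains Dnah5 and Dnah9 read 5.57 and 7.30, and 5.80 and 7.11. The inner arm heavy chain Dnah12 read 5.25 and 7.49, and Dnah6 read 5.64 and 7.67. Dnaic1 and Dnaic2, the intermediate chains of the outer arm, differed by 1.47 and 1.10. The smallest difference of the list was that of the light chain Dnal1, at 0.12. Dnah7a and Dnah7c are near-identical copies, both dim, and their signals (differences of 1.01 and 1.30) may not be separable.

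Among the spokes and the central pair, Rsph4a, a radial spoke head protein, read 11.17 at Day0, 6.18 on the drug, 8.95 after withdrawal and 5.73 in iPS cells. Dnajb13, a protein of the radial spoke, differed by 2.49, Hydin, a giant protein of the central pair, by 2.15, and Cfap206, at the base of a spoke, by 3.04. Ccdc39 and Ccdc40, which form the ruler that sets the axonemal repeat, differed by 1.73 and 1.45, and Drc1, of the nexin link, by 1.53. Rsph9, a further spoke head protein, differed by 0.62, and Rsph6a, whose dim signal was the only lower one of the list, by -0.29.

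Promoters of the genes at least 4-fold higher were read for sequences that known regulators bind, in RefSeq windows of 300 bases (250 before and 50 after the gene start, build GRCm38.p6). The RFX factors, which switch on cilium genes, bind the X-box, searched here as GTNNCC, any 2 bases and GGNNAC in a row, a palindrome that reads alike on both strands. Of the 54 genes with a window among the 70 at least 4-fold higher, 8 held a match (14.8%), as did 1 of 72 among the genes at least 4-fold lower (1.39%), 270 of 9885 kept genes (2.73%) and 618 of all 32851 windows (1.88%). The forkhead core GTAAACA on either strand, a sequence bound by Foxj1 and other forkhead factors, stood in windows of 7 of the 54 genes (12.96%), 2 of the 72 (2.78%) and 308 of the 9885 (3.12%), and in 3.65% of all windows. Among the 59 genes of the dynein arm and spoke lists with a window, whatever their difference, 5 held an X-box match (8.47%) and 4 a forkhead match (6.78%). Of the 33 of these that were kept and at least 2-fold higher, 3 held an X-box match (9.09%) and 2 a forkhead match (6.06%). A match is a description of the letters in this window, and no binding was measured.

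The stretches around the 8 X-box matches are shown because this is the motif found in the largest share of the genes at least 4-fold higher. Each runs 5′ to 3′ on the strand of its gene, with the match in capitals and up to 30 bases on each side within the window.
Cfap206: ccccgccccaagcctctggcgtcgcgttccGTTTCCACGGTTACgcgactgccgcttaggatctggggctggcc
Ttc29: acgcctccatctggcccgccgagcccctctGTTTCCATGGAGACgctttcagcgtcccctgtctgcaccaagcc
Cdkl4: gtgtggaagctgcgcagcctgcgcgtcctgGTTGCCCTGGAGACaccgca
Ppp1r36: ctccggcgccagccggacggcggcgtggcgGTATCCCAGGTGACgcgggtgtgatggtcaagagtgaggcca
Zmynd10: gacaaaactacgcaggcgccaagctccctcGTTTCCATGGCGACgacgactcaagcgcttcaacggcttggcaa
Spag6l: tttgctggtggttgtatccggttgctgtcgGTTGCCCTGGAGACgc
Deup1: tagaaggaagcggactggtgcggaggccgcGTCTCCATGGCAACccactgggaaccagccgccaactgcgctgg
Odf3b: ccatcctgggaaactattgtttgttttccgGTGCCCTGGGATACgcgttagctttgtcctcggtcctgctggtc
Cfap206, of the radial spoke base, read 6.47 at 3W+Dox and 9.51 in withdrawn cells, and its stretch lies at chr4:34730186-34730259 on the minus strand, the first base of the match being 23 bases before the gene start. Ttc29, a protein of sperm tails and cilia, read 4.18 at 3W+Dox and 6.85 in withdrawn cells, and its stretch lies at chr8:78213271-78213344 on the plus strand, the first base of the match being 41 bases before the gene start. Cdkl4, a kinase, read 5.08 at 3W+Dox and 7.58 in withdrawn cells, and its stretch lies at chr17:80577435-80577484 on the minus strand, the first base of the match being base 31 of the gene. Ppp1r36, a phosphatase regulator, read 6.41 at 3W+Dox and 8.69 in withdrawn cells, and its stretch lies at chr12:76417577-76417648 on the plus strand, the first base of the match being base 9 of the gene. Zmynd10, an assembly factor of dynein arms, read 5.58 at 3W+Dox and 7.85 in withdrawn cells, and its stretch lies at chr9:107547274-107547347 on the plus strand, the first base of the match being base 1 of the gene. Spag6l, of the central pair, read 6.39 at 3W+Dox and 8.64 in withdrawn cells, and its stretch lies at chr16:16829314-16829359 on the minus strand, the first base of the match being base 35 of the gene. Deup1, the deuterosome scaffold, read 5.69 at 3W+Dox and 7.86 in withdrawn cells, and its stretch lies at chr9:15627890-15627963 on the minus strand, the first base of the match being 87 bases before the gene start. Odf3b, of the outer dense fibre family, read 6.74 at 3W+Dox and 8.83 in withdrawn cells, and its stretch lies at chr15:89379258-89379331 on the minus strand, the first base of the match being 47 bases before the gene start. All 8 signals were below 7 at 3W+Dox, and none of the withdrawn signals reached that of Day0.

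Of the regulators of multiciliogenesis, 26 of 28 measured genes had a higher signal after withdrawal, with a median difference of 0.46, and 8 of the 22 kept were at least 2-fold higher with 0 lower. Of these 22, 8 were kept only through the withdrawn array, which favours a higher signal there. Foxj1 (Entrez gene 15223), the forkhead factor that drives motile cilium genes, read 11.19 at Day0, 7.99 on the drug and 10.45 in withdrawn cells. Ccna1, an A-type cyclin with a role in meiosis, read 8.27 at Day0, 5.81 on the drug, 8.99 after withdrawal and 6.88 in iPS cells. Its withdrawn signal was the highest of the 4 arrays.

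Genes of the early steps of the cascade had higher signals as well. Gmnc, at the top of the cascade, read 10.28 at Day0 and was dim on both arrays of the pair, at 5.22 and 6.42. Mcidas, its partner in the next step, read 6.76 and 7.87, Ccno, a cyclin needed for centriole production, 5.94 and 7.27, and Myb, a factor of early ciliated cells, 7.48 and 8.65. Deup1, a scaffold of the deuterosome on which centrioles are multiplied, was higher by 2.18, while Plk4, the kinase of centriole duplication in all dividing cells, was at 0.08. The RFX factors Rfx2 and Rfx3 were at 0.52 and 0.49 and Rfx1 at -0.09, all within 2-fold. E2f4 and E2f5, the cell cycle factors that Mcidas works with, were at 0.19 and 0.10.

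Genes of proteins that assemble or carry cilium parts had smaller median differences. Of 13 dynein arm assembly factors, 11 had a higher signal, with a median of 0.61, led by Lrrc6 (4.77 on the drug, 7.13 in withdrawn cells) and Zmynd10 (5.58 and 7.85). Intraflagellar transport and BBSome genes, which also serve the primary cilium found on most cell types, had a higher signal in 29 of 36, but 0 of the 35 kept were 2-fold apart. Their median was 0.25 and their range -0.13 for Ift57 to 0.79 for Traf3ip1, and Ift88 read 7.75 and 8.04.

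**Figure D2:**
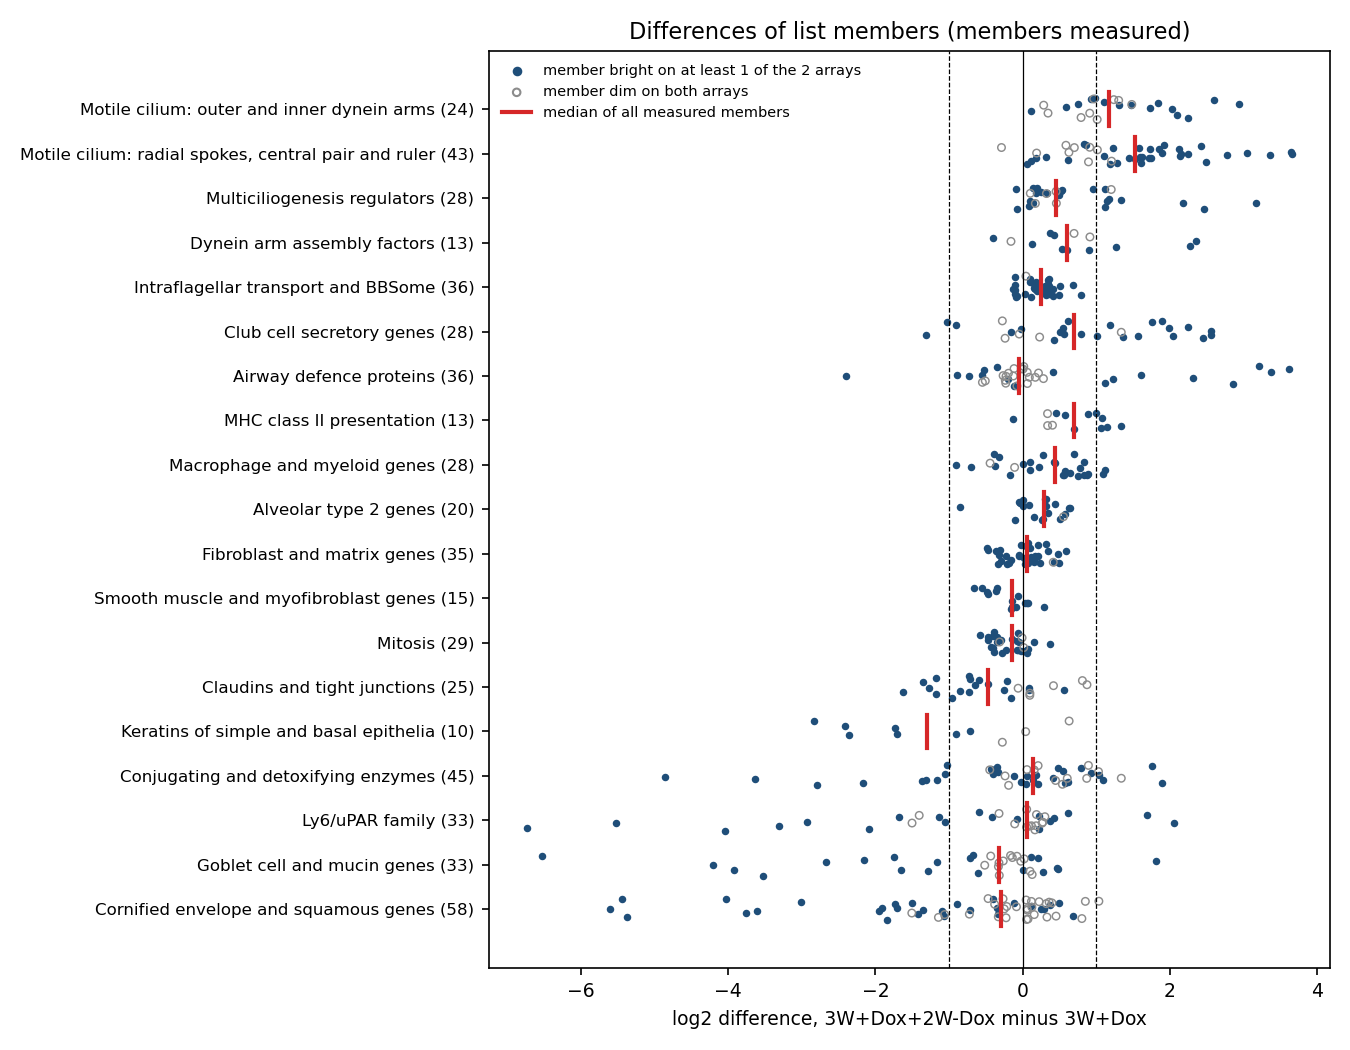
Log2 difference of each measured list member between the 2 arrays (x axis) for 19 gene lists (y axis, number of measured members in parentheses), with dashed lines at 2-fold, filled points for kept members, open points for members dim on both arrays and a red bar at the median of all measured members. The dynein arm and spoke lists have medians of 1.17 and 1.53, the fibroblast list 0.05, and the goblet and squamous lists hold long tails to the left with medians of -0.32 and -0.30.

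Club cell secretory genes were in part higher. Of 28 measured genes 20 had a higher signal, with a median of 0.70, and of the 23 kept 12 passed 2-fold upward and 2 passed it downward. Of these 23, 2 were kept only through the withdrawn array, Scgb3a2 among them, and 0 only through the 3W+Dox array. Scgb3a2 (Entrez gene 117158), a secretoglobin, read 10.21 at Day0, 6.25 on the drug, 8.81 after withdrawal and 3.86 in iPS cells, and its relative Scgb3a1 read 13.28, 10.45, 12.70 and 6.37. Hp, the haemoglobin-binding protein haptoglobin, read 13.54, 10.21, 12.66 and 6.22, and Cckar, a receptor of the hormone cholecystokinin, 13.05, 7.92, 10.48 and 5.48. Scgb1a1, the main secretory protein of club cells, had stayed bright on the drug and differed by 0.42. Signals above about 13 lie near the brightest of these arrays (13.85), and differences between them can be too small.

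The club cell enzymes did not all have higher signals. Cyp4b1, a cytochrome P450 that activates inhaled compounds, was higher by 1.99, Ces1d, a carboxylesterase, by 1.89, Fmo2, a flavin monooxygenase of the lung, by 1.76, and Cyp2f2 by 1.01. The members past 2-fold downward were enzymes too, as Gsta4, a glutathione transferase, was at -1.32 and Aldh1a1, a retinaldehyde dehydrogenase, at -1.03.

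Some secreted defence proteins were strongly higher. Among 36 measured genes 17 had a higher signal, with a median of -0.05, and 19 were dim on both arrays. Of the 17 kept, 8 passed 2-fold upward, 1 passed it downward and 8 were within it, and 4 of the 17 were kept only through the withdrawn array. Reg3g, an antimicrobial lectin, read 12.14 at Day0, 8.80 on the drug, 12.002 after withdrawal and 4.55 in iPS cells, so the withdrawn signal was close to that of Day0. Bpifb1 and Bpifa1, secreted proteins of the upper airway, read 6.35 and 6.67 on the drug and 9.73 and 8.28 in withdrawn cells, below 12.95 and 13.28 at Day0. Gp2, a glycoprotein that binds bacteria, and Reg1, a lectin of the same family as Reg3g, were instead highest after withdrawal, reading 8.09 and 4.62 at Day0, 6.92 and 4.92 on the drug and 10.53 and 7.78 in withdrawn cells. Dmbt1, a scavenger protein of mucosal surfaces, likewise read 4.81, 5.75 and 8.06. The sole lower member past 2-fold was Wfdc1, a protease inhibitor, at -2.40.

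**Figure D3:**
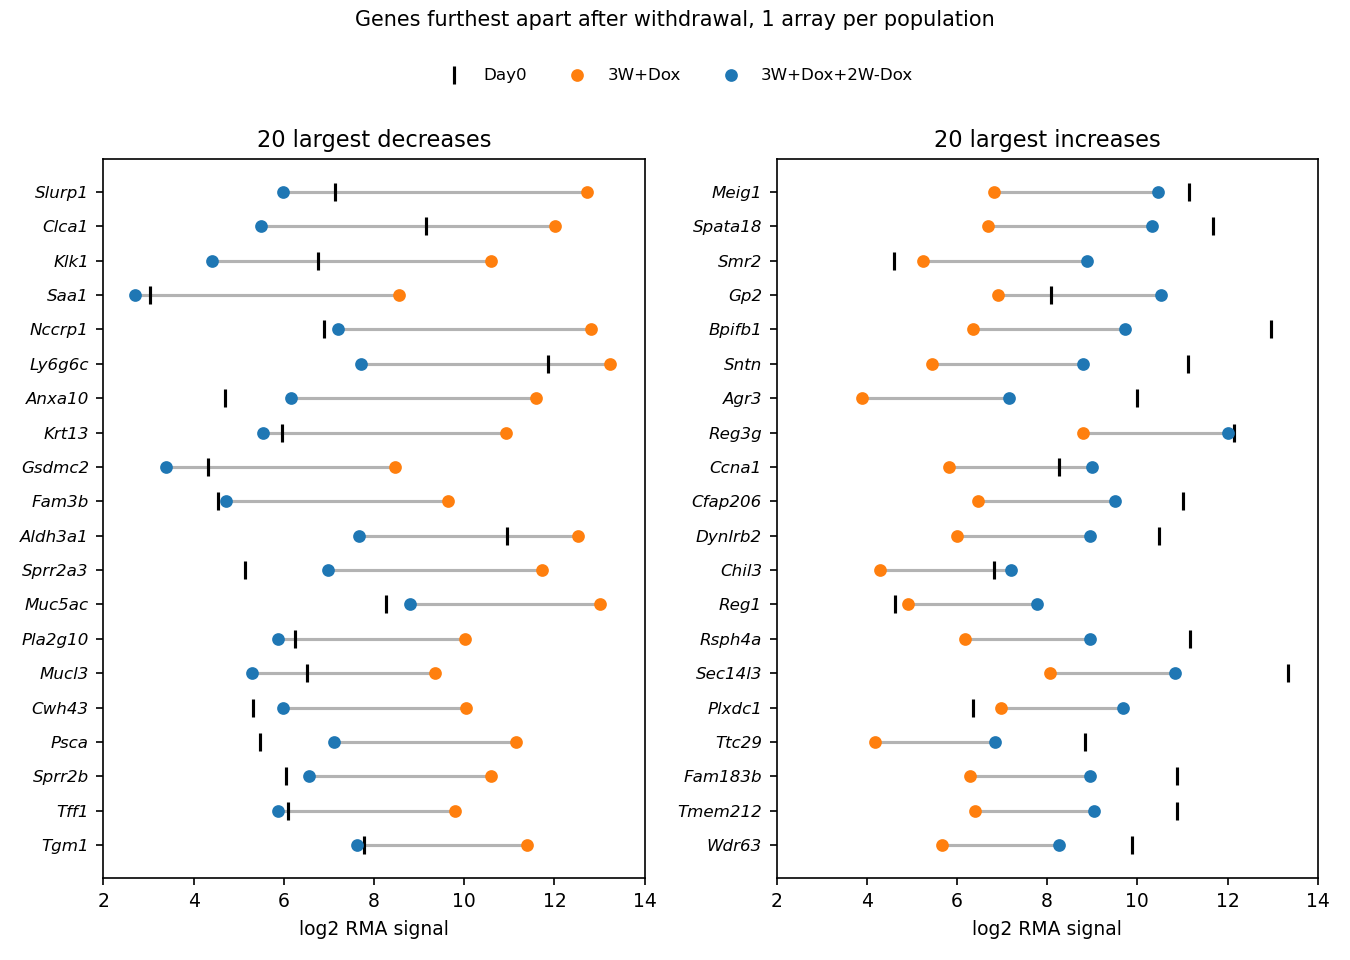
Log2 signal (x axis) on the 3W+Dox array (orange), the 3W+Dox+2W-Dox array (blue) and the Day0 array (black tick) for the 20 largest decreases (left) and the 20 largest increases (right) among kept genes, leaving out predicted genes, clone names and receptor segments. Signals of 3W+Dox run from 8.47 to 13.24 among the decreases and from 3.89 to 8.80 among the increases.

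Goblet cell and mucin genes were lower in large part. Of 33 measured genes 23 had a lower signal, with a median of -0.32, and of the 20 kept 10 passed 2-fold downward and 1 passed it upward. Of these 20, 3 were kept only through the 3W+Dox array, which favours a lower withdrawn signal. Clca1 (Entrez gene 23844), a secreted protein of goblet cells, read 9.15 at Day0, 12.02 on the drug, 5.49 after withdrawal and 6.09 in iPS cells, so it ended below Day0. Muc5ac (Entrez gene 17833), a mucin that goblet cells secrete to form gel, read 8.27, 13.002, 8.80 and 4.94 and ended near Day0. Muc5b, the gel-forming mucin of club cells, read 11.63, 13.15, 10.48 and 5.75, and the membrane mucin Muc4 read 9.82, 11.22, 9.57 and 5.33.

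Of the 10 goblet list members past 2-fold downward, some encode enzymes that add sugars to mucins. Gcnt3, which branches mucin glycans, was at -3.52, Fut2, which adds fucose, at -2.15, B3gnt3, which extends the chains, at -1.74, and Galnt12 and Galnt7, which start them, at -1.29 and -1.17. The trefoil peptide Tff1 read 9.80 on the drug and 5.87 in withdrawn cells. Agr2, a disulfide isomerase that folds mucins, was the member past 2-fold upward, at 7.23 and 9.04. The factors that drive goblet cells stayed within 2-fold, with Spdef at 0.48, Creb3l1 at 0.11 and Foxa3, dim on both arrays, at -0.14.

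Many squamous genes bright on the drug were lower after withdrawal. Of 58 measured genes of the cornified envelope and squamous epithelium, 35 had a lower signal, with a median of -0.30, and 29 were dim on both arrays. Of the 29 kept, 17 passed 2-fold downward and 0 passed it upward, and 11 of the 29 were kept only through the 3W+Dox array, which favours a lower withdrawn signal. Krt13 (Entrez gene 16663), a keratin of moist stratified epithelia, read 5.96 at Day0, 10.92 on the drug, 5.54 after withdrawal and 5.43 in iPS cells. Nccrp1, a lectin-like protein of squamous epithelium, read 6.88, 12.81, 7.20 and 7.87, and Anxa10, an annexin, 4.69, 11.59, 6.15 and 4.43. The withdrawn signals of Krt13 and Nccrp1 were within 2-fold of Day0.

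Some of the 17 squamous members past 2-fold downward encode parts of the cornified envelope. Tgm1, the transglutaminase that cross-links it, read 11.39 on the drug and 7.63 in withdrawn cells, and Scel, a precursor protein, 9.87 and 6.27. The proline-rich precursor Sprr2b was at -4.03, Sprr1a at -1.71, and the desmosome-linked Ppl and Evpl at -1.42 and -1.35. Sprr2a3, in no list, read 11.73 and 6.97, though Sprr2 genes are near-identical copies that probe sets may not separate. Envelope proteins of the skin such as Flg stayed dim, at 5.73 and 4.67.

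Keratins of simple epithelium were lower as well. Krt7, Krt8, Krt18 and Krt19, the keratins of simple lining cells, read 12.34, 12.40, 11.90 and 12.26 on the drug and 9.98, 10.68, 10.99 and 10.56 in withdrawn cells. Krt80 and Krt20, keratins of differentiating epithelia, were at -2.84 and -2.42. Of the 7 kept keratins in this list 5 were at least 2-fold lower and 0 higher, and the median over all 10 measured was -1.30. Of these 7, 2 were kept only through the 3W+Dox array. The basal keratins were within 2-fold, with Krt14 at -0.72 and Krt5, dim on both arrays, at 0.63.

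The largest decrease of all lay in the Ly6/uPAR family, small cysteine-rich proteins that are secreted or anchored to the cell surface. Slurp1 (Entrez gene 57277), a secreted member, read 7.14 at Day0, 12.72 on the drug, 5.99 after withdrawal and 5.66 in iPS cells, a 106-fold lower signal after withdrawal. Ly6g6c read 11.87, 13.24, 7.71 and 8.09, Psca, known as a stem cell antigen of the prostate, 5.48, 11.14, 7.10 and 5.35, and Lypd2 12.67, 11.92, 8.62 and 7.59. Ly6g6c and Lypd2 had been bright at Day0 and ended more than 4 log2 units below it. Among the 19 kept family members 9 passed 2-fold downward and 2 passed it upward, these being Ly6i (7.17 and 9.23) and Ly6d (6.93 and 8.62). The median over all 33 measured members was 0.05, against -0.60 over the kept ones.

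Some other epithelial families were led by a few genes. Klk1, a tissue kallikrein, read 10.59 on the drug and 4.41 in withdrawn cells, while the other 14 kept genes of this list of 32 measured kallikreins and epithelial serine protease genes were within 2-fold, for instance Klk10 at -0.75 and St14, the membrane protease matriptase, at -0.87. The list did not hold every such gene, and the kallikrein Klk1b11 and the serine protease Prss32, named after their values were seen, were at -3.16 and -2.13. Klk1 and Klk1b genes are close copies that probe sets may not separate. The gasdermins Gsdmc2, Gsdmc3 and the dim Gsdmc4, near-identical copies of pore-forming proteins, were at -5.09, -2.63 and -1.94, while the other 6 measured gasdermin genes were less than 2-fold apart.

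Klf4 and Myc, which are reprogramming factors and also genes of normal epithelium, were both lower. Klf4 (Entrez gene 16600) read 8.60 at Day0, 10.72 on the drug, 9.44 after withdrawal and 10.67 in iPS cells, and Myc read 7.62, 10.79, 9.75 and 9.09. Pou5f1 was dim on both arrays, at 6.51 and 5.87, and Sox2 read 8.44 and 8.85. The signals do not separate transgenes from the genes of the cell. A KLF box, GGGTGTGG on either strand, stood in windows of 10 of the 72 genes with a window among those at least 4-fold lower (13.89%), in 2 of the 54 at least 4-fold higher (3.70%) and in 456 of 9885 kept genes (4.61%), and in 3.56% of all windows. Of the 59 dynein arm and spoke list genes with a window, 3 held it (5.085%). Among the 33 of these that were kept and at least 2-fold higher, 3 held it (9.09%), the same count as for the X-box. The E-box CACGTG, which Myc binds, stood in windows of 2 of 72 (2.78%), 2 of 54 (3.70%) and 1152 of 9885 (11.7%), and in 7.15% of all windows. No binding was measured here either, and the part of Klf4 or Myc in these differences was not tested.

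The stretches around the KLF box of the 5 genes with the largest decreases among those 10 are shown as above, because this motif was in the largest share of the genes at least 4-fold lower. Capitals mark the box, which appears as CCACACCC where it lies on the other strand. The Ckmt1 window holds 2 boxes, of which the first is in capitals.
Upk3bl: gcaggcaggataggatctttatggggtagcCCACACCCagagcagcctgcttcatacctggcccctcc
Anxa9: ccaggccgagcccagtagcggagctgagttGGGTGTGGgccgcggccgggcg
Atp2a3: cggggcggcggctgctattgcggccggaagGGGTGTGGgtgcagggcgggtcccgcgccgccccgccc
Ms4a8a: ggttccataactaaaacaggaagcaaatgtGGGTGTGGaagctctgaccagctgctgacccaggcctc
Ckmt1: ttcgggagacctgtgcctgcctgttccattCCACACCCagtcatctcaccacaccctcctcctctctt
Upk3bl, a uroplakin-like membrane protein, read 10.37 at 3W+Dox and 6.63 in withdrawn cells, and its stretch lies at chr5:136057059-136057126 on the plus strand, the first base of the match being 178 bases before the gene start. Anxa9, an annexin, read 9.82 at 3W+Dox and 6.39 in withdrawn cells, and its stretch lies at chr3:95315131-95315182 on the minus strand, the first base of the match being base 29 of the gene. Atp2a3, a calcium pump of the endoplasmic reticulum, read 10.96 at 3W+Dox and 8.19 in withdrawn cells, and its stretch lies at chr11:72961101-72961168 on the plus strand, the first base of the match being 38 bases before the gene start. Ms4a8a, a membrane protein, read 9.52 at 3W+Dox and 6.82 in withdrawn cells, and its stretch lies at chr19:11081136-11081203 on the minus strand, the first base of the match being 70 bases before the gene start. Ckmt1, a mitochondrial creatine kinase, read 11.01 at 3W+Dox and 8.42 in withdrawn cells, and its stretch lies at chr2:121357679-121357746 on the plus strand, the first base of the match being 67 bases before the gene start.

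Of the other motifs searched on both strands, the kappa B sequence (GGG, any 2 bases and TTTCC) stood in windows of 1 of the 72 genes (1.39%), 1 of the 54 (1.85%) and 193 of the 9885 (1.95%), and in 1.63% of all windows. The STAT6 palindrome (TTC, any 4 bases and GAA) stood in 4 of 72 (5.56%), 5 of 54 (9.26%) and 634 of 9885 (6.41%), and in 6.95% of all windows.

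Ribosome biogenesis genes and other textbook targets of Myc were nearly level, with a median of -0.13 over 30 genes and Npm1, a nucleolar chaperone, as the sole member at least 2-fold apart, at -1.03. Of the wider pluripotency network 25 of 36 measured genes were dim on both arrays, among them Nanog at 5.83 and 5.96 and Zfp42 at 4.37 and 4.24. Tfcp2l1, a factor also made in epithelial ducts, read 10.70 and 8.77 and was the sole kept member at least 2-fold apart.

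Cell junction genes were modestly lower. Of 25 measured claudin, tight junction and epithelial adhesion genes 17 had a lower signal, with a median of -0.48. Of the 19 kept, 5 were at least 2-fold lower and 0 higher, beside 3.47% and 2.68% of all kept genes. The 5 were Cldn11 (-1.63), Cldn4 (-1.35), Ocln, which encodes occludin (-1.27), Cldn23 (-1.18) and Cldn7 (-1.17). The alveolar claudin Cldn18 was level, at 11.17 and 11.26. Epcam and Cdh1, general epithelial adhesion genes, read 10.77 and 12.20 on the drug and 10.18 and 11.48 in withdrawn cells.

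A few epithelial regulators of transcription and splicing were lower. Of the 37 kept genes of the Klf, Ets and lung epithelial list, 5 were at least 2-fold lower and 0 higher, beside 3.47% and 2.68% of all kept genes, namely Foxq1 (-1.44), Klf3 (-1.16), Elf3 (-1.08), Esrp1, a splicing regulator of epithelium (-1.04), and Ehf (-1.02). Nkx2-1, which specifies lung epithelium, was level at 9.93 and 10.07. The median over the 43 measured was -0.08.

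Transporters of salt and water differed in both directions. Scnn1b and Scnn1g, subunits of the epithelial sodium channel, read 8.01 and 8.13 on the drug and 9.96 and 9.52 in withdrawn cells, against 12.81 and 12.25 at Day0. The third subunit, Scnn1a, had stayed bright and was at -0.78. Kcnj15, a potassium channel, was higher by 1.08. Aqp3, a water and glycerol channel, read 6.84 at Day0, 9.78 on the drug and 6.19 in withdrawn cells, and Fxyd4 and Fxyd3, modulators of the sodium pump, were at -2.34 and -1.54. In all, 3 of the 27 kept genes of this list passed 2-fold upward and 6 downward, beside 2.68% and 3.47% of all kept genes. Of these 27, 3 were kept only through the 3W+Dox array and 2 only through the withdrawn array. The median over 33 measured was -0.01.

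Detoxifying enzymes differed in both directions. Aldh3a1, an aldehyde dehydrogenase of barrier epithelia, read 10.95 at Day0, 12.52 on the drug, 7.66 after withdrawal and 6.17 in iPS cells. Adh7, an alcohol dehydrogenase of stratified epithelium, read 10.57, 10.47, 6.84 and 5.02, and Nqo1, a quinone reductase, 10.39, 11.14, 8.97 and 8.53. All of these were bright at Day0 and ended below both earlier arrays. Of 32 kept conjugating and detoxifying genes 9 passed 2-fold downward and 4 passed it upward, the latter being Ces1d, Fmo2, Ces1g (1.09) and the haem oxygenase Hmox1 (1.04). Of these 32, 3 were kept only through the 3W+Dox array and 1 only through the withdrawn array. The median over 45 measured was 0.14. Among 19 kept P450 genes 3 passed 2-fold upward and 3 passed it downward, beside 2.68% and 3.47% of all kept genes. The lower ones were Cyp4f39 (-2.97), Cyp3a13 (-2.81) and Cyp2j6 (-1.16). Cyp4a10, a fatty acid hydroxylase outside that list and named after its values were seen, read 7.71 on the drug and 4.23 in withdrawn cells.

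**Figure D4:**
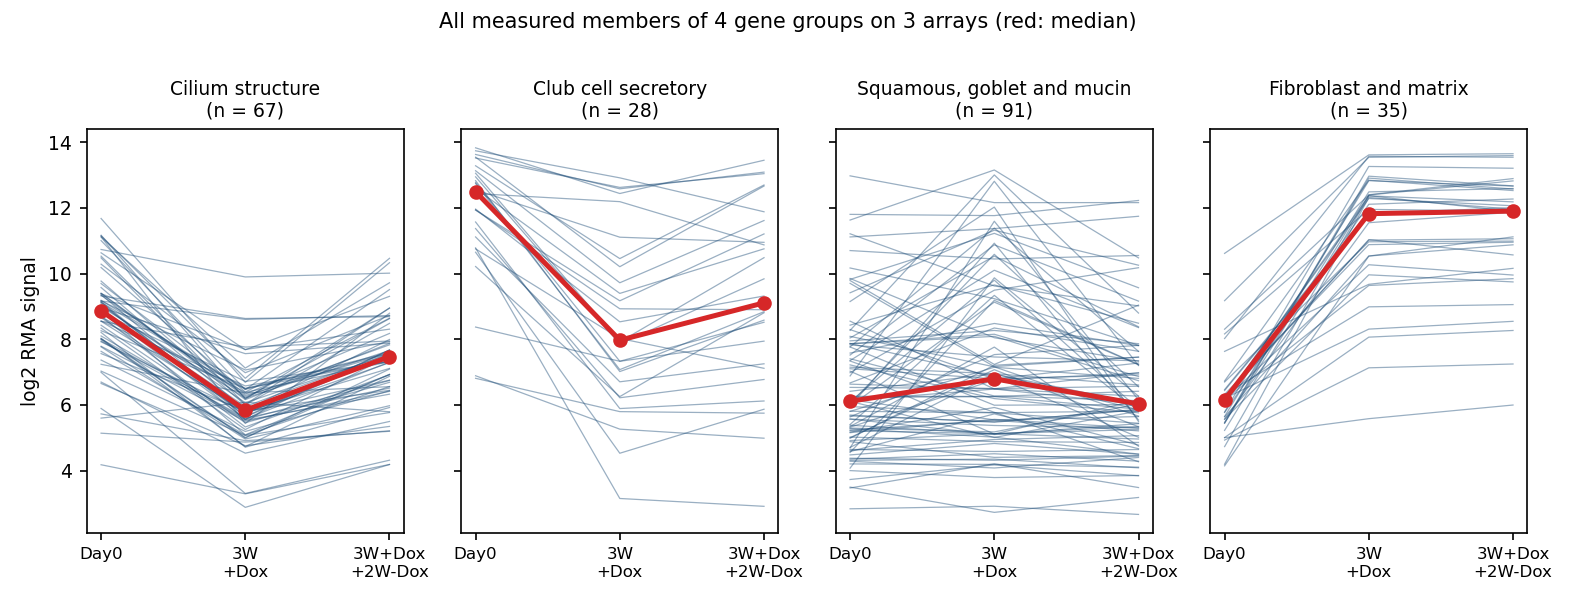
Log2 signal (y axis) of all measured members of 4 gene groups on the Day0, 3W+Dox and 3W+Dox+2W-Dox arrays (x axis), each thin line a gene and the red line the median. Cilium medians run 8.87, 5.84 and 7.47, club cell medians 12.49, 7.97 and 9.11, the pooled squamous, goblet and mucin medians 6.11, 6.80 and 6.03, and fibroblast medians 6.16, 11.82 and 11.90.

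Genes of inflammation were lower at a few members only. Saa1, an acute-phase protein, read 3.03 at Day0, 8.56 on the drug and 2.71 in withdrawn cells, Il18, an epithelial cytokine, 8.96 and 6.44 on the arrays of the pair, Tnf 10.31 and 8.66, and Orm1, a plasma glycoprotein, 8.10 and 6.82. These were the 4 of 25 kept acute-phase and NF-kB target genes that were at least 2-fold lower, with 0 higher. Of all kept genes 3.47% were at least 2-fold lower and 2.68% higher. The median over 39 measured was -0.09, and 4 of the 25 were kept only through the 3W+Dox array, which favours a lower withdrawn signal. The neutrophil chemokines Cxcl1 and Cxcl5 were level, at 7.85 and 7.85 and at 8.85 and 8.70. Interferon-response genes were mixed, with Oas2 at -1.49, Gbp2 at -1.19 and Mx1 at -1.17 against Ifit1 at 1.34, and 23 of 27 kept within 2-fold.

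Targets of IL-13, a cytokine that drives mucus production, had no common direction, with 13 of 25 measured higher and 12 lower. Chil3, a chitinase-like protein of alternatively activated macrophages, read 4.28 on the drug and 7.21 in withdrawn cells, and Retnla, a resistin-like protein, 9.17 and 11.21. The eosinophil chemokine Ccl11 and the trefoil peptide Tff2 were higher by 1.36 and 1.23. Of the 15 kept targets 4 were at least 2-fold higher and 1, Clca1, was lower, with a median of 0.00 over 25 measured. The list did not hold every mucus gene, and Muc5ac, at -4.20, was not counted in it.

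Macrophage markers were present on both arrays and slightly higher after withdrawal. Of 28 measured macrophage and myeloid genes 20 had a higher signal, with a median of 0.43, and median signals were 6.12 at Day0, 9.23 on the drug and 9.87 in withdrawn cells. Trem2, a lipid-sensing receptor, read 10.42 and 11.54, and Fcgr3, an antibody receptor, 8.78 and 9.88, the 2 members at least 2-fold higher. The defining markers Ptprc (7.44 and 7.27), Csf1r (9.29 and 8.97) and Adgre1 (9.78 and 9.88) were level.

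MHC class II genes, which present antigen to T cells and are made by macrophages and by some epithelial cells, were higher in 12 of 13 measured, with a median of 0.69. H2-Ab1 read 9.63 and 10.97, H2-Eb1 7.78 and 8.92, H2-DMa 8.81 and 9.88 and H2-Aa 8.96 and 10.01, the 4 of 10 kept that were at least 2-fold higher. Of all kept genes 2.68% were. The part of macrophages in the signals of Chil3, Retnla and MHC class II was not tested. Lymphocyte markers were dim in 9 of 10 measured, with Cd3e at 5.00 and 4.82, and the endothelial markers Pecam1 (5.56 and 5.53) and Cdh5 (5.88 and 5.83) were dim as well. Tek, a receptor of endothelial cells, was the sole endothelial gene at least 2-fold apart among 5 kept of 14 measured, at -2.35.

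Fibroblast and matrix genes were bright on both arrays and level between them. Their 35 measured members had median signals of 6.16 at Day0, 11.82 on the drug and 11.90 in withdrawn cells, and 0 of 34 kept were 2-fold apart, from -0.48 for Postn to 0.59 for Lum. Col1a1 read 12.84 and 12.53, Pdgfra, the receptor that marks lung fibroblasts, 10.53 and 10.87, and Vim 13.54 and 13.59. Smooth muscle genes were level too, with a median of -0.15 over 15 genes and Myh11, smooth muscle myosin, furthest apart at -0.65.

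Alveolar genes stayed near their 3W+Dox signals. Of 20 alveolar type 2 genes 16 had a higher signal, by a median of 0.29, and 0 of 19 kept were 2-fold apart, with Sftpb, a surfactant protein, at 13.08 and 13.34. In the alveolar type 1 list 2 of 20 genes were at least 2-fold lower, Krt7 and Lmo7 (-1.23), and Ager, a receptor that marks these cells, read 9.50 and 9.79. Of 21 airway basal cell genes 11 had a higher signal, with a median of 0.24, and of the 17 kept 5 passed 2-fold downward and 1 upward. Trp63, the master factor of basal cells, read 6.36 and 7.21. The 5 were Adh7, Aqp3 and the basement membrane genes Lama3 (-1.99), Itgb4 (-1.53) and Itga6 (-1.51). The member past 2-fold upward, Dapl1, a gene of early differentiating epithelium, read 5.22 at Day0, 4.99 on the drug and 7.42 in withdrawn cells.

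Cell cycle and housekeeping genes were nearly all within 2-fold, some lists leaning to 1 side by small amounts. Mitosis genes had a lower signal in 22 of 29 measured, with a median of -0.15 and 0 of 26 kept 2-fold apart. DNA replication genes had a lower signal in 28 of 35, also with a median of -0.15, and Mcm6, part of the replicative helicase, was the sole member of 28 kept that was, at -1.19. Oxidative phosphorylation (28 kept genes, median over 32 measured 0.01), cholesterol and fatty acid synthesis (30 kept, -0.01), the unfolded protein response (26 kept, -0.06, 20 lower), immediate early genes (24 kept, -0.11) and CDK inhibitor and p53 target genes (16 kept, 0.13, 13 higher) had 0 members 2-fold apart. In the glycolysis and hypoxia list Adm, the vasodilator peptide adrenomedullin, was at 1.09 and Ndrg1, a stress gene, at -1.25, with the other 24 within 2-fold.

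Signalling genes differed at a few members. The Notch pathway steers airway cells between secretory and ciliated fates. Of the 14 kept genes of its list 2 were at least 2-fold lower and 0 higher, namely the ligand Jag1 (-1.08) and Notch4 (-1.36). Notch1, Notch2 and the target Hes1 were level (0.04, -0.08 and 0.00). In the Wnt list 4 of 32 kept genes were at least 2-fold lower and 0 higher, beside 3.47% and 2.68% of all kept genes. The 4 were the ligands Wnt7a (-1.74) and Wnt4 (-1.44), the receptor Lgr4 (-1.27) and the inhibitor Sfrp2 (-1.01). Of 25 kept TGF-beta, BMP and activin genes 2 were at least 2-fold lower and 0 higher. These were Bmp2, a ligand of the BMP pathway (-1.19), and Chrdl1, its antagonist (-1.18). Among 18 kept genes of the EGF receptor list 1 was at least 2-fold lower and 0 higher, the receptor Erbb3 (-1.08). The same shares of all kept genes stand beside these counts. Each of these lists had a median between -0.08 and 0.00 over its measured members. Neuroendocrine genes had 1 of 9 kept members at least 2-fold higher, the prohormone convertase Pcsk1 at 1.32.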

How the data were processed

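Signals of 25206 probe sets on 4 Affymetrix arrays were taken from the deposited table. They are log2 values that the authors made with RMA (background correction, quantile normalization, median polish), using affy and R 3.0.2, per the submitters' processing notes; the values ran from 1.70 to 13.85, and the annotation version is not given in the sources used here. Platform annotation gave 1 symbol for 23185 probe sets, and 2021 unnamed ones were left out. Per gene, the 3W+Dox signal was subtracted from the 3W+Dox+2W-Dox signal (Python 3.11.15, pandas 2.3.3). The calling step was run on simulated noisy copies of the 3W+Dox array with known shifts in bright genes. That run checks the code only and cannot show how exact the calls are in these data. With 1 array per population no test was run and the number of arrays limits precision. The comparison, the 46 gene lists (1195 genes measured, 45 listed names unmatched) and the motifs were chosen with earlier results of these data known. Named genes are the 20 largest increases and decreases past 4-fold (no predicted genes, receptor or immunoglobulin segments, or small RNAs), up to 6 members per list with the largest difference, fixed markers and genes beside the brightness limit; other members named for their role in a pathway were chosen after their values were seen. Promoter windows are from RefSeq (GRCm38.p6). Other brightness limits, thresholds, scalings and list summaries were tried as alternatives.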

Additional observations from a re-analysis of the deposited data

How the results depend on the processing

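Alternatives were applied 1 at a time. With only 1 array on each side, no array could be left out, and no paired analysis was possible because each population had 1 array. Without a filter on dim genes, list medians over all measured members replaced those over kept members, from -0.72 to -0.48 for claudins, 1.01 to 0.70 for club cell, -1.35 to -0.30 for squamous, -0.94 to -0.32 for goblet, -1.73 to -1.30 for keratin, 0.94 to 0.69 for MHC class II and 1.47 to 1.17 for dynein arm genes, and the signs of airway basal cell genes (from -0.027 to 0.24), of the Ly6/uPAR family (from -0.60 to 0.053) and of airway defence proteins (from 0.41 to -0.049) turned. Without that filter the medians of gasdermins, kallikreins and reprogramming factors went from -2.63 to -0.24, from -0.46 to -0.23 and from -1.04 to -0.84. Keeping genes only from 8.82 (the upper quartile), fewer genes remained to be called: 111 passed 2-fold and 28 passed 4-fold upward, 257 passed 2-fold downward, and the share of 2-fold calls that were higher went from 43.5% to 30.2%. List medians there were -1.95 for squamous, -1.70 for goblet, -2.05 for keratin and -1.13 for Ly6/uPAR genes. They were 2.77 for dynein arm, 2.91 for radial spoke and central pair genes (main 1.67) and 0.16 for multiciliogenesis regulators (main 0.50). Kallikrein genes were at -0.68 (main -0.46), and neuroendocrine genes and airway defence proteins turned to -0.64 and -0.16. The dynein arm median came from Dynlrb2 and Dnali1, which reached 8.82 on the withdrawn array only. A limit on the brighter array favours a larger median in such lists, so these larger medians are not a stronger result. A 1.5-fold threshold gave 796 higher and 957 lower genes, and an 8-fold threshold 10 and 41. Means over kept members were -1.62 for squamous, -1.38 for goblet, -1.26 for Ly6/uPAR and 0.79 for multiciliogenesis regulators. Without members of several lists, medians were 1.57 for club cell and -1.17 for goblet genes. Centring each array left all 46 list medians within 0.19 of their main values, and a second quantile normalization and a floor at the lower quartile left 45 each. The cause of these shifts was not tested where none is named.
Folds of genes whose dimmer signal lies near background are not exact.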

Other observations

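Of the 179 genes at least 4-fold apart, 108 were in no list. Those named here were chosen after their values were seen, and they carry no test. Several encode proteins of the apical surface of epithelia and were lower after withdrawal. The uroplakin Upk1b, a plaque protein of the urinary tract lining, read 8.76 at Day0, 11.86 at 3W+Dox and 8.20 in withdrawn cells, Msln, the surface protein mesothelin, 8.46, 11.67 and 9.30, and Tspan8, a tetraspanin, 5.52, 8.77 and 6.47. Atp10b and Atp8a2, lipid flippases, were at -2.27 and -2.24, and the calpain proteases Capn13 and Capn9 at -3.53 and -3.11. Itga2, a collagen-binding integrin subunit, read 5.97, 11.36 and 9.20, and Mmp9, a gelatinase, 6.25, 10.40 and 8.37, so both stayed well above Day0.

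Some genes were higher in withdrawn cells than on either earlier array. Of the 337 genes at least 2-fold higher, the Day0 signal was at or above both arrays of the pair for 236. It lay between them for 26 and at or below both for 75. For the 70 at least 4-fold higher these counts were 59, 6 and 5. Smr2, a secreted salivary protein, read 4.61 at Day0, 5.24 at 3W+Dox and 8.88 in withdrawn cells, Plxdc1, a membrane receptor, 6.36, 6.97 and 9.68, Atp6v0d2, a proton pump subunit of osteoclasts and macrophages, 6.89, 8.82 and 11.28, and Ghrl, which encodes the hormone ghrelin, 7.70, 6.54 and 8.63. Sec14l3, a lipid-binding protein of airway cells, differed from these in reading 13.33, 8.06 and 10.83. Among gene names left out of the naming rule, the T cell receptor segment Trdv4 read 3.69, 9.94 and 3.69, and the clone-named genes 2300002M23Rik, Gm14393 and AA467197 differed by -5.70, -4.39 and -4.04.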
